A study of Mus musculus with 12 samples.

Results

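The interferon regulatory factors (IRFs) are transcription factors that share a DNA-binding domain and read a GAAA-containing element, the interferon-stimulated response element (ISRE), in the promoters of antiviral genes. Irf3, Irf7 and Irf5 are phosphorylated downstream of nucleic acid sensors and Toll-like receptors and then switch on interferon genes, Irf9 is the DNA-binding subunit of the ISGF3 complex that type I interferon assembles, Irf1 and Irf2 are an activator and its antagonist on partly shared sites, and Irf8 is best known from the development of myeloid and B cells. In epithelial cells the family carries the cell-intrinsic arm of the interferon response. The account below covers 7 of its genes, taken by symbol (Irf1, Irf2, Irf3, Irf5, Irf7, Irf8 and Irf9), of 35521 genes in the tables, and all 7 passed the filter on low counts that left 12555 genes for testing. Irf4, a lymphoid factor of the same family, had 0 reads in all 12 libraries.

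RNA sequencing was performed on 4T1 cells, a mouse mammary carcinoma line of Balb/c origin, in 3 groups of 4 libraries. Tu-primed cells had shared a transwell for 48 h with Gr1+ cells, a magnetic selection that takes mainly granulocytic and monocytic myeloid cells, from tumors of Balb/C mice that carried 4T1 (4T1_MDSC_T in the labels). Spl-primed cells (4T1_MDSC_S) were placed with Gr1+ cells from the spleens of such mice, and parental cells (4T1) were cultured without Gr1+ cells, all in DMEM Glutamax with serum. The labels give day 21 for the isolation of Gr1+ cells and pores of 0.4 µm for the membrane, and the 4T1 cells were lysed in their well. A single cell line stands for the tumor cells in all groups. Libraries held between 24566183 and 31637755 assigned reads. The labels do not say whether replicates were separate cultures or separate donors of Gr1+ cells, so p-values measure the spread between these libraries, which may be technical. Of 20 granulocyte and myeloid markers, the leukocyte antigen Ptprc had at most 10 reads in any library, Itgam at most 6, Ly6g at most 3 and Csf3r at most 2, and 4 others (Cd14, Ltf, S100a8 and Cxcr2) were abundant enough to test. The epithelial markers summed to between 1631 and 3442 CPM (reads scaled to a common library size by TMM, a trimmed mean of log ratios between libraries).

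Promoter stretches of the members are shown first, for the letters that interferon-activated factors read and, for Irf7 and Irf9, because these genes differed most between groups. RefSeq windows (GRCm38.p6, 250 bases before to 50 after an annotated start) were found for all 7 genes. They were searched on both strands for the ISRE core, spelled GAAA, any 2 bases, GAAA, and for the gamma-activated site that STAT dimers read, spelled TTC, any 3 bases, GAA, which is the same on both strands. The motifs do not contain each other. Of 32817 promoter windows of the same length, 3.43% held the ISRE core and 8.29% the gamma-activated site. Of the 7 members, 1 held the core and 3 the site. Members were counted per gene and the background per window, and Irf1, Irf8 and Irf9 had more than 1 window. With positions counted from the start, matches lay at -90 to -82 in Irf1 (gamma-activated site), at -241 to -232 (ISRE core) and -224 to -216 (gamma-activated site) in Irf2, and at -171 to -163 and -153 to -145 in Irf8 (gamma-activated sites). In the stretches printed here, 5′ to 3′ on the plus strand, capitals mark the matches: chr11:53769894-53769962 for Irf1, chr8:46739495-46739559 for Irf2 and chr8:120736157-120736243 for Irf8.
Irf1: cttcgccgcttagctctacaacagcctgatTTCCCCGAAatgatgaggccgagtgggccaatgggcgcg
Irf2: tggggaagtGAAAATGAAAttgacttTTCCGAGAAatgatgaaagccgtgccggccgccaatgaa
Irf8: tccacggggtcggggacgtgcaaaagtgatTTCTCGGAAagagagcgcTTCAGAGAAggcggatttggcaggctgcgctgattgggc

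The windows of Irf3, Irf5, Irf7 and Irf9 held neither set of letters, which says only that these letters are not in these windows. The 100 bases before the annotated starts of Irf7 and Irf9, the members with the largest differences, are printed in lower case with nothing marked: chr7:141266425-141266524 on the minus strand for Irf7, and for Irf9, on the plus strand, chr14:55603885-55603984 before its upstream start and chr14:55604479-55604578 before its downstream start.
Irf7: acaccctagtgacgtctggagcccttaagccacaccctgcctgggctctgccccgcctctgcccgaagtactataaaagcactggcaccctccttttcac
Irf9 upstream: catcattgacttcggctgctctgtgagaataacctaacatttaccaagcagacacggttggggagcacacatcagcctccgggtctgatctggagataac
Irf9 downstream: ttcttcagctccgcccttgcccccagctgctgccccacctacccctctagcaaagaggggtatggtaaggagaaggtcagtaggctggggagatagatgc

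Of the 4 targets of ISRE-binding factors named below, Rtp4 and Parp14 had no window in the table, and the window of Xaf1 held no ISRE core. The window of Oas1a, a double-stranded RNA-activated synthetase, held 2 overlapping ISRE cores at -20 to -5 (chr5:120907526-120907555, minus strand, matches in capitals).
Oas1a: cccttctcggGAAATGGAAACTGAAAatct

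Irf7, the IRF that amplifies interferon-α expression and is itself an interferon-induced gene, showed the largest difference of the family. The gene lies at chr7:141262706-141266481 (GRCm38, minus strand, ENSMUSG00000025498). Its level was 67.0, 43.9, 36.7 and 13.0 CPM in Tu-primed libraries 1 to 4, against 1.76, 1.93, 1.74 and 2.54 in Spl-primed libraries and 1.48, 1.52, 1.93 and 2.00 in parental libraries. The lowest Tu-primed library thus stood 5.11-fold above the highest Spl-primed library, and the groups did not overlap. Spl-primed and parental libraries overlapped and rested on few reads, between 37 and 73 per library.

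Between Tu-primed and Spl-primed cells, the log2 fold change of Irf7 was 4.33 ± 0.40 (SE; 20.1-fold, 95% CI 11.0 to 36.7; adjusted p = 2.42e-05, quasi-likelihood test of edgeR, adjusted over all genes tested by Benjamini-Hochberg). Relative to parental cells it was 4.54 ± 0.42 in Tu-primed cells (edgeR adjusted p = 1.55e-06). In Spl-primed cells the corresponding value was 0.21 ± 0.53 (edgeR adjusted p = 0.771), with a 95% CI of -0.94 to 1.35. A difference of a size within that interval remains possible. Irf7 was also the member that varied most among Tu-primed libraries, with a coefficient of variation of 55.4% and a 5.16-fold difference between libraries 1 and 4.

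Irf9, the DNA-binding subunit of ISGF3, had the second largest difference and separated all 3 groups. It lies at chr14:55603571-55610030 (plus strand, ENSMUSG00000002325). Tu-primed libraries 1 to 4 held 62.2, 53.1, 42.2 and 27.8 CPM, Spl-primed libraries 6.50, 6.39, 7.23 and 8.31, and parental libraries 3.91, 4.28, 4.53 and 3.64. Every Tu-primed library lay above every Spl-primed library and every Spl-primed library above every parental one. As with Irf7, Tu-primed library 1 was the highest and library 4 the lowest, here 2.24-fold apart.

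The log2 fold change of Irf9 was 2.70 ± 0.20 between Tu-primed and Spl-primed cells (6.51-fold; edgeR adjusted p = 4.70e-06) and 3.50 ± 0.21 between Tu-primed and parental cells (11.3-fold; edgeR adjusted p = 7.01e-08). Between Spl-primed and parental cells it was 0.80 ± 0.23 (1.74-fold; edgeR adjusted p = 0.0108). That smaller call was lost with limma-voom (log2 fold change 0.79, adjusted p = 0.0668), with offsets for transcript length (0.51, edgeR adjusted p = 0.0632) and in the deposited normalized table (0.47, limma adjusted p = 0.0584).

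Irf1, which is induced by interferon-γ and drives antigen presentation and guanylate-binding protein genes, rose from parental to Spl-primed and again to Tu-primed cells, with little spread within groups. It lies at chr11:53770014-53778374 (plus strand, ENSMUSG00000018899). CPM was 50.8, 47.2, 49.5 and 50.6 in Tu-primed libraries, 37.0, 40.2, 39.8 and 41.4 in Spl-primed libraries, and 24.2, 27.8, 26.0 and 29.7 in parental libraries. No group overlapped another, and Tu-primed library 4, the lowest for Irf7 and Irf9, was level with library 1 for Irf1.

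In fold terms Irf1 differed far less than Irf7 and Irf9: its log2 fold change was 0.32 ± 0.06 between Tu-primed and Spl-primed cells (1.25-fold; edgeR adjusted p = 0.00554), 0.88 ± 0.06 between Tu-primed and parental cells (edgeR adjusted p = 2.28e-07) and 0.56 ± 0.06 between Spl-primed and parental cells (edgeR adjusted p = 2.04e-05). The difference between Tu-primed and Spl-primed cells kept its size but not its call with transcript length offsets (0.31, edgeR adjusted p = 0.0877) and in the deposited normalized table (0.31, limma adjusted p = 0.0913).

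**Figure D1:**
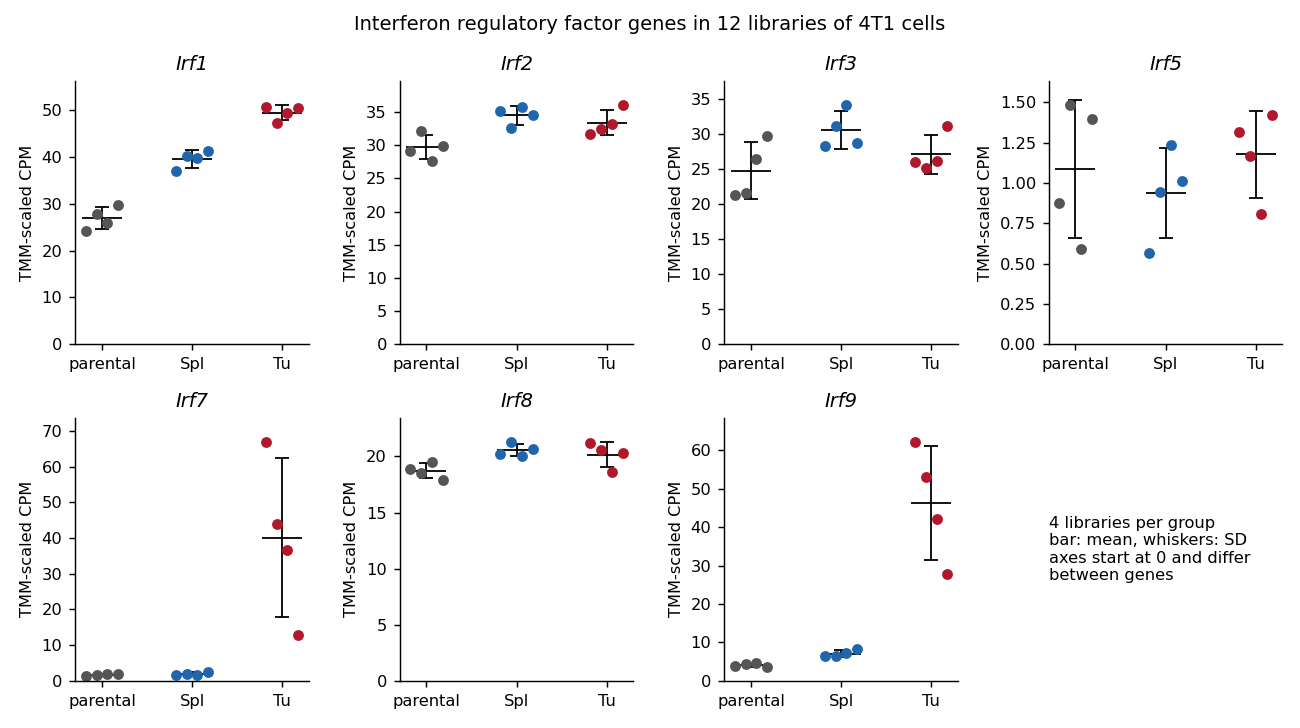
Level of each member (TMM-scaled CPM, axes from 0 and separate for each gene) in the 4 libraries of each group, with points for libraries, a bar for the mean and whiskers for the SD. Irf7 and Irf9 stand apart in Tu-primed cells with a wide spread (13.0 to 67.0 and 27.8 to 62.2 CPM), Irf1 is lowest in parental and highest in Tu-primed cells, and the other 4 members shift far less between groups.

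Irf2, the constitutive antagonist of Irf1, was slightly higher in both primed groups. It lies at chr8:46739732-46847458 (plus strand, ENSMUSG00000031627). Its level was 31.8, 32.5, 33.3 and 36.1 CPM in Tu-primed libraries, 35.1, 32.6, 35.8 and 34.6 in Spl-primed libraries and 29.2, 32.1, 27.7 and 29.9 in parental libraries. Tu-primed and Spl-primed libraries overlapped (log2 fold change -0.05 ± 0.06, 95% CI -0.18 to 0.08; edgeR adjusted p = 0.689). Against parental cells the log2 fold change was 0.17 ± 0.06 in Tu-primed cells (edgeR adjusted p = 0.0265) and 0.22 ± 0.06 in Spl-primed cells (edgeR adjusted p = 0.00906). These small differences depended on how transcript length was treated: with length offsets they were 0.12 (edgeR adjusted p = 0.444) and -0.03 (edgeR adjusted p = 0.889). The call in Tu-primed cells was also lost without Tu-primed library 3 or 4 or without parental library 1 or 3 (edgeR adjusted p up to 0.0890).

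Irf3, the constitutively present IRF that nucleic acid sensing activates by phosphorylation, was higher in Spl-primed than in parental cells. It lies at chr7:44997648-45002848 (plus strand, ENSMUSG00000003184). CPM was 26.0, 25.1, 26.1 and 31.2 in Tu-primed libraries, 28.3, 31.2, 34.2 and 28.7 in Spl-primed libraries and 21.3, 21.6, 26.5 and 29.7 in parental libraries, with every pair of groups overlapping. The log2 fold change between Spl-primed and parental cells was 0.31 ± 0.11 (edgeR adjusted p = 0.0305). Between Tu-primed and Spl-primed cells it was -0.17 ± 0.11 (95% CI -0.40 to 0.06; edgeR adjusted p = 0.366), and between Tu-primed and parental cells 0.13 ± 0.11 (95% CI -0.10 to 0.36; edgeR adjusted p = 0.311). With transcript length offsets the latter was 0.34 and passed the threshold (edgeR adjusted p = 0.0402). When only transcripts annotated as protein coding were summed, the difference between Spl-primed and parental cells turned to -0.14 (edgeR adjusted p = 0.392), which is taken up with the transcripts below. The call was also lost without Spl-primed library 2 or 3 or without parental library 1 or 2 (log2 fold change down to 0.23, edgeR adjusted p up to 0.107).

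Irf8 lay between 17.9 and 21.3 CPM in all 12 libraries and differed little between groups. It lies at chr8:120736358-120756694 (plus strand, ENSMUSG00000041515). Tu-primed libraries held 21.2, 20.6, 18.6 and 20.3 CPM, Spl-primed libraries 20.2, 21.3, 20.0 and 20.7, and parental libraries 18.9, 18.5, 19.5 and 17.9. No comparison passed the threshold: the log2 fold change was -0.03 ± 0.06 between Tu-primed and Spl-primed cells (95% CI -0.15 to 0.09; edgeR adjusted p = 0.818), 0.11 ± 0.06 between Tu-primed and parental cells (edgeR adjusted p = 0.117) and 0.14 ± 0.06 between Spl-primed and parental cells (edgeR adjusted p = 0.062). Spl-primed libraries all lay above parental ones, and that difference passed with upper-quartile scaling (edgeR adjusted p = 0.0329), with at least 10 counts in every library (0.0485) and with protein-coding transcripts only (0.0424). Of 8 transcription factors that work with Irf8 in myeloid cells, 6 were too low to test. Spi1, which encodes PU.1, had at most 1 read in any library, as did Spib and Batf, and Ikzf1 and Cebpe had 0 reads. Etv6, at 76.4 to 88.0 CPM on average in the groups, and Batf3, at 0.47 to 0.67 CPM, were tested and not called in any comparison. The annotation places Irf8 inside a readthrough gene on the same strand, Gm20388, which had 3794 to 5148 reads per library, and how reads were split between them was not tested.

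Irf5, which acts downstream of Toll-like receptors in myeloid cells, was barely detected. It lies at chr6:29526625-29541871 (plus strand, ENSMUSG00000029771) and had between 14 and 41 reads per library. Its level was 1.31, 1.17, 0.804 and 1.42 CPM in Tu-primed libraries, 0.565, 0.944, 1.23 and 1.01 in Spl-primed libraries and 0.876, 1.48, 0.587 and 1.40 in parental libraries. The log2 fold change between Tu-primed and Spl-primed cells was 0.33 ± 0.31 (95% CI -0.34 to 1.00, edgeR adjusted p = 0.575). A difference of a size within that interval remains possible. Its end overlaps Tnpo3 on the opposite strand, which had 3818 to 5351 reads per library. The kit was stranded, but whether counting used the strand is not given in the sources used here. Whether reads of the neighbor were counted for Irf5 is therefore not known.

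In all, 3 members (Irf1, Irf7 and Irf9) were called higher in Tu-primed than in Spl-primed cells and 0 lower, where 7.63% of all genes tested were called, 4.66% higher and 2.97% lower. The same 3 members lay above Spl-primed cells without overlap, as did 8.51% of all genes, and 0 lay below without overlap, against 8.51% of all genes. The median log2 fold change of the 7 members was 0.32, and of all genes -0.01.

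Against parental cells, 4 members were higher in Tu-primed cells (Irf1, Irf2, Irf7 and Irf9) and 4 in Spl-primed cells (Irf1, Irf2, Irf3 and Irf9), with 0 lower in either. The background was far wider there. In Tu-primed against parental cells 59.2% of genes were called, 31.2% higher and 28% lower, and 28.6% lay above and 26.9% below without overlap, beside 3 members above. In Spl-primed against parental cells 48.2% were called, 25.7% higher and 22.5% lower, and 21.3% lay above and 18.3% below without overlap, beside 4 members above. With backgrounds this wide, the counts against parental cells describe the members and set them apart from nothing. The median log2 fold change of the 7 was 0.17 in Tu-primed and 0.22 in Spl-primed cells, and of all genes 0.02 in both. At an unadjusted p under 0.05 in edgeR, 0 members were lower in any comparison, and DESeq2 and limma-voom also called 0 lower. Both comparisons with parental cells share the same 4 control libraries.

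**Figure D2:**
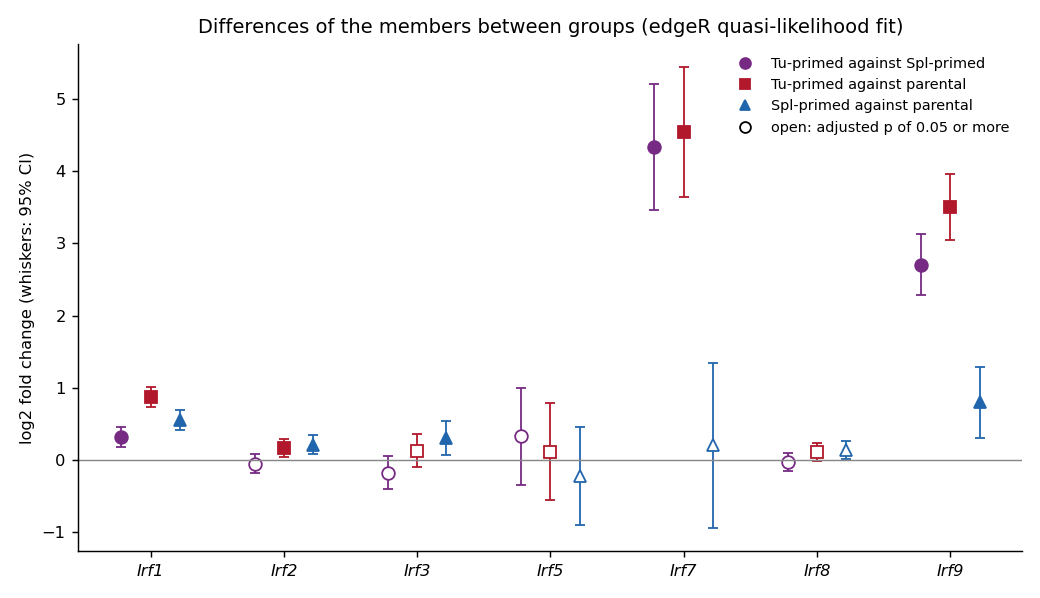
Log2 fold change of each member in the 3 comparisons, with 95% confidence intervals not adjusted for the number of genes; filled symbols passed an adjusted p of 0.05 in the edgeR fit and open symbols did not. Irf7 (4.33 and 4.54) and Irf9 (2.70 and 3.50) are far above 0 in both comparisons of Tu-primed cells, and in Spl-primed against parental cells the largest called value is that of Irf9 at 0.80.

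Levels of different genes were compared per transcript length, in TPM, each the share of a library corrected for transcript length. Because TPM are shares of a library, the median gene tested was 0.49 higher on the log2 scale in Tu-primed and 0.42 higher in Spl-primed than in parental cells in these units, so only the make-up within a library is described. In parental cells Irf3 was the most abundant member, at 31.9% ± 2.14 (SD, n = 4) of the summed TPM of the 7 genes. Irf2 at 25.4% ± 3.89 and Irf1 at 24.0% ± 2.32 came next and did not differ beyond their spread, then Irf8 at 11.9% ± 0.84. Irf7 and Irf9 made up 1.80% ± 0.22 and 3.34% ± 0.39 there. Spl-primed cells had nearly the same make-up for this pair, with 1.47% ± 0.28 for Irf7 and 3.65% ± 0.39 for Irf9. Tu-primed cells held 20.1% ± 9.10 Irf7 and 16.1% ± 3.35 Irf9.

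The 4 Tu-primed libraries were not alike in this respect. In library 1, Irf7 was the most abundant member at 28.7% of the summed TPM, and in library 2 as well at 23.3%. Irf1 led in library 3 at 21.6%, with Irf7 at 20.9%, and in library 4 Irf3 led at 28.2% while Irf7 stood at 7.31%. The level order thus changed from one Tu-primed library to another, which no Spl-primed library showed: there Irf3 led in all 4, at 34.6% to 41.0%. These sums count all transcripts, including the retained-intron forms of Irf3 taken up below. Its main protein-coding form, Irf3-202, was at 13.5 to 16.7 TPM in Spl-primed libraries, below Irf1-202 at 23.9 to 28.5. In Tu-primed library 4 these 2 forms were at 16.0 and 34.4 TPM. In these libraries the lead of Irf3 thus holds only for all transcripts summed. In parental libraries 1 to 4, Irf3-202 was at 13.6, 10.5, 14.8 and 14.3 TPM. There Irf1-202 was at 13.3, 14.0, 12.8 and 13.3 TPM and Irf2-201 at 13.6, 15.6, 10.3 and 10.7.

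**Figure D3:**
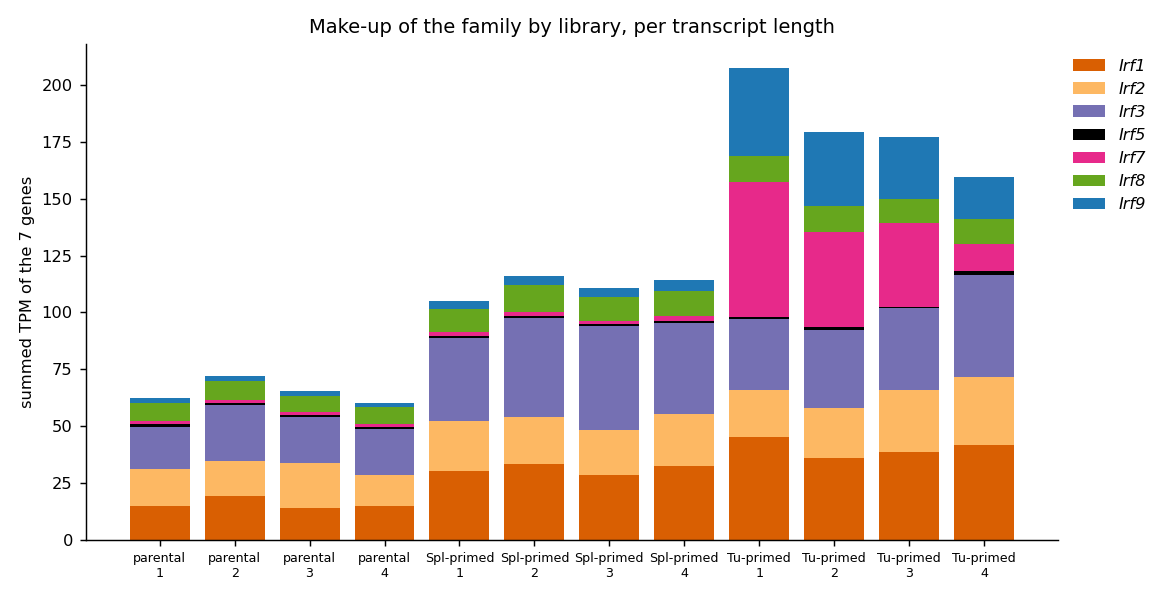
Summed TPM of the 7 members in each of the 12 libraries, stacked by gene. The sums run from 60.1 to 71.9 in parental, 105 to 116 in Spl-primed and 160 to 208 in Tu-primed libraries, and the Irf7 and Irf9 segments are wide in the Tu-primed bars, least so in library 4. In TPM the median gene was also higher than in parental cells, by 0.49 in Tu-primed and 0.42 in Spl-primed cells on the log2 scale. Bar heights are therefore not a comparison of groups.

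Ratios between members and their partners within a library were tested by exact permutation, two-sided, in 9 tests (smallest p that 4 against 4 libraries allow, 0.0286). The log2 TPM ratio of Irf1 to its antagonist Irf2 was 0.71 ± 0.31 in Tu-primed, 0.54 ± 0.09 in Spl-primed and -0.07 ± 0.36 in parental libraries (SD, n = 4 each). Both primed groups lay above parental cells without overlap (exact permutation p = 0.0286, adjusted p = 0.0367 in each), and the primed groups overlapped (exact permutation p = 0.4). On CPM in place of TPM, the ratio also separated Tu-primed from Spl-primed cells, by 0.37 (exact permutation, adjusted p = 0.0321).

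The log2 TPM ratio of Irf9 to Stat2, another subunit of ISGF3, was 0.11 ± 0.28 in Tu-primed, -0.71 ± 0.09 in Spl-primed and -0.20 ± 0.24 in parental libraries (SD, n = 4 each), higher in Tu-primed than in Spl-primed cells (exact permutation p = 0.0286, adjusted p = 0.0367). Its fall from parental to Spl-primed cells by 0.50 depended on the unit: on CPM the value was 0.12 in the opposite direction.

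Stat2, which binds Irf9 within ISGF3, was higher in Tu-primed cells as well. It was at 81.3, 62.6, 59.2 and 32.4 CPM in Tu-primed libraries 1 to 4, against 15.4 ± 0.56 in Spl-primed and 9.72 ± 0.86 in parental libraries (SD, n = 4), with a log2 fold change of 1.93 ± 0.20 between the primed groups (edgeR adjusted p = 3.91e-05). In Spl-primed against parental cells Stat2 was also called higher (0.67, edgeR adjusted p = 0.0179). Of the 6 kinases and STAT factors listed, 3 were higher in Tu-primed than in Spl-primed cells, among them Stat3 with a log2 fold change of 1.12, and 0 lower. Against parental cells 5 were higher and 1 lower in Tu-primed cells, and 3 higher and 1 lower in Spl-primed cells. Over all genes tested, 4.66% were called higher between the primed groups. Against parental cells 31.2% were higher and 28% lower in Tu-primed cells, and 25.7% and 22.5% in Spl-primed cells.

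Upstream of Irf3 and Irf7, sensors of RNA and DNA pass their signal through adaptors to kinases. Of 20 tested sensors, adaptors and kinases, 5 were higher and 1 lower in Tu-primed than in Spl-primed cells (all genes tested: 4.66% and 2.97%). The list median was 0.12 against -0.01 for all genes. The 5 were all sensors: Ddx58, which encodes RIG-I (log2 fold change 1.80), Ifih1, which encodes MDA5 (1.78), their relative Dhx58 (3.06), the Z-form nucleic acid sensor Zbp1 (4.30) and Tlr3 (0.72). The adaptor Mavs was lower by 0.28 on the log2 scale with overlapping groups, and Mavs was named after its value was seen, as was Tlr3. Mavs was no longer called without Tu-primed library 1, 2 or 3 or Spl-primed library 2. Tbk1 and Ikbke, which encode the kinases that phosphorylate Irf3 and Irf7, were not called between the primed groups (0.14, edgeR adjusted p = 0.300, and 0.01, edgeR adjusted p = 0.972).

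Relative to parental cells, those same kinases were higher in both primed groups. Tbk1 was at 69.4 ± 4.29 CPM in Tu-primed, 63.1 ± 1.92 in Spl-primed and 33.9 ± 4.11 in parental libraries (SD, n = 4). Its log2 fold change was 1.03 ± 0.08 in Tu-primed and 0.90 ± 0.08 in Spl-primed cells (edgeR adjusted p = 2.54e-07 and 1.41e-06). Ikbke was at 29.7 ± 2.71, 29.6 ± 3.73 and 17.3 ± 1.03 CPM, with log2 fold changes of 0.78 and 0.77. Tbk1 and Ikbke, with Chuk, Ikbkb and Cgas, made up the 5 of 20 called higher in Spl-primed cells, where Traf6 was called lower, and all were named after their values were seen. None of the 5 sensors called between the primed groups was among them. Of all genes tested, 25.7% were called higher and 22.5% lower in Spl-primed cells, so 5 of 20 was near the background. In Tu-primed against parental cells 12 of the 20 were higher and 1 was lower (all genes tested: 31.2% and 28%).

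Ligands of the pathway were at or near 0. None of 13 interferon genes was tested. Ifnb1 and Ifna4 had 1 read each in a single Tu-primed library, Ifne and Ifnz at most 2 reads and 1 read per library, Ifng had 0 reads in all 12 libraries, and 9 of the 13 were at 0 throughout. An amount of 3 reads corresponds to between 0.094 and 0.126 CPM in these libraries. Transcripts of the Gr1+ cells across the membrane were not measured, and fewer cells of a type and less RNA per cell cannot be told apart in bulk libraries. Of 5 tested receptor subunits, the type I receptor subunit Ifnar2 was higher in Tu-primed than in Spl-primed cells (30.9 ± 1.93 against 25.0 ± 1.04 CPM, SD, n = 4; log2 fold change 0.31, edgeR adjusted p = 0.0059) and 0 were lower. Ifnar1, its partner, was higher in both primed groups than in parental cells, by 0.57 and 0.41 on the log2 scale, and 3 of 5 subunits were higher and 0 lower in each of these comparisons. The share of all genes called higher was 4.66% between the primed groups. Against parental cells it was 31.2% in Tu-primed and 25.7% in Spl-primed cells.

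Among 10 listed regulators of IRFs or of their signaling, 2 were higher in Tu-primed than in Spl-primed cells and 0 lower (all genes tested: 4.66% and 2.97%). Usp18, the ISG15 protease that restrains signaling at Ifnar2, is also counted among the ISRE-type targets below. It was at 22.9, 14.8, 9.40 and 2.12 CPM in Tu-primed libraries 1 to 4 and at 0.22 to 0.69 in Spl-primed libraries (log2 fold change 4.84 ± 0.62, edgeR adjusted p = 0.000229). Trim21, a ubiquitin ligase of IRFs, was 1.93-fold higher (0.95 ± 0.14; edgeR adjusted p = 0.000548). The Irf2 co-repressor Irf2bp1 was not called between the primed groups, and relative to parental cells it fell by 0.63 in Tu-primed and by 0.31 in Spl-primed cells on the log2 scale. In all, 4 of the 10 were higher and 3 lower in Tu-primed than in parental cells (all genes tested: 31.2% and 28%), near the background. In Spl-primed against parental cells 0 were higher and 3 lower (all genes tested: 25.7% and 22.5%).

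Downstream, targets of ISRE-binding factors were higher in Tu-primed cells. Their median log2 fold change between Tu-primed and Spl-primed cells was 2.82 against -0.01 for all genes. Of 20 such genes tested, 19 were higher in Tu-primed than in Spl-primed cells and 0 lower (all genes tested: 4.66% and 2.97%). The exception was Ifit2, at 0.21 (edgeR adjusted p = 0.170), named after its value was seen. Rtp4 (3.84), Oas1a (4.10), the pro-apoptotic Xaf1 (3.88) and the mono-ADP-ribosyltransferase Parp14 (2.53) had the smallest p-values. With at least 10 counts required in every library, fewer of the genes could be tested and 12 were called. Against parental cells 20 of 20 were higher in Tu-primed cells (all genes tested: 31.2%), with a median of 2.94. In Spl-primed against parental cells the median was 0.07 against 0.02 for all genes. There 1 was higher (Ddx60, 1.57) and 1 lower (Oasl1, by 0.62 on the log2 scale), against 25.7% and 22.5% of all genes tested. Ddx60 and Oasl1 were named after their values were seen. Ddx60 was not called without Spl-primed library 4 or parental library 4, where 0 were higher. Of 14 of these genes with a promoter window, 7 held the ISRE core, against 3.43% of all windows, counted per window and not per gene. The core was also held by 6 of 14 Irf1-type targets and by 6 of 13 interferon genes, so it was not particular to this list. The ISRE-type targets were chosen as known interferon targets with earlier results of these data known. Neither their direction nor their share of ISRE cores is therefore independent evidence.

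Genes that Irf1 is known to drive were higher too, and by less. Of 19 tested, 13 were higher in Tu-primed than in Spl-primed cells and 0 lower (all genes tested: 4.66% and 2.97%). Their median log2 fold change was 0.77, and against parental cells 16 were higher and 0 lower (all genes tested: 31.2% and 28%). They included the guanylate-binding proteins Gbp3 (2.97) and Gbp2 (1.56), the immunoproteasome subunit Psmb8 (1.30) and xanthine dehydrogenase, Xdh (0.93). In Spl-primed against parental cells, where Irf1 was 1.47-fold higher, the median was 0.05. There 3 were higher and 2 lower, against 25.7% and 22.5% of all genes tested. Those higher were Nlrc5, Il15 and Tap2 (by 1.41, 0.94 and 0.45), and those lower Psmb10 and Xdh (by 0.45 and 0.31 on the log2 scale). These 5 were named after their values were seen, except Xdh. Between the primed groups, the count of 13 fell to 7 with transcript length offsets and in the deposited normalized table.

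**Figure D4:**
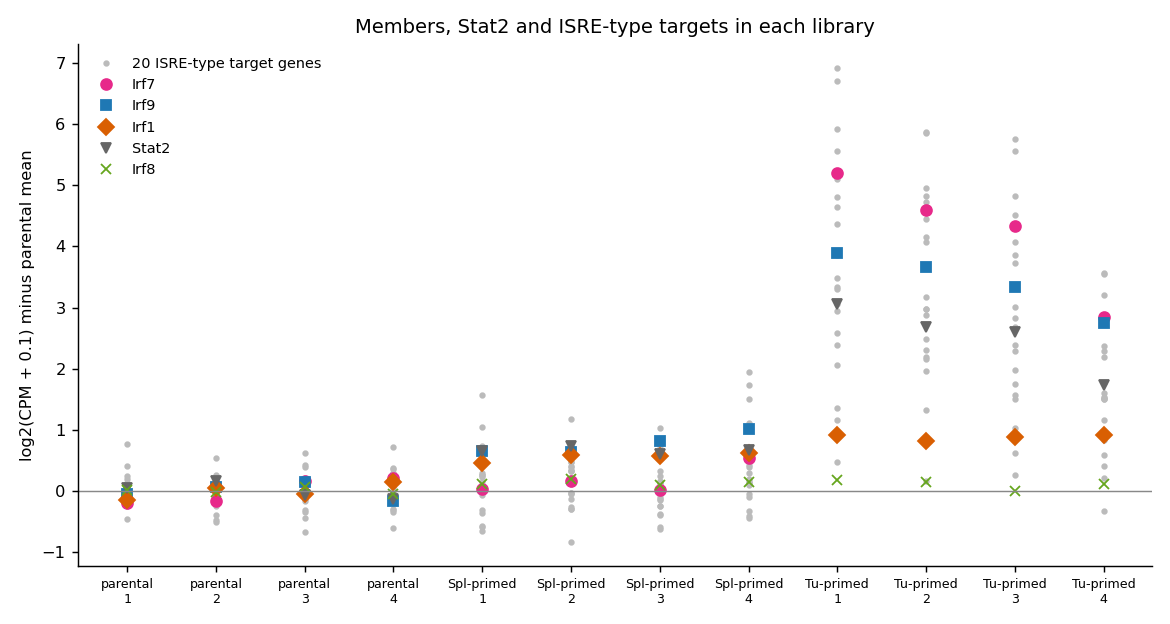
Log2(CPM + 0.1) of Irf1, Irf7, Irf8, Irf9 and Stat2 (colored symbols) and of 20 ISRE-type target genes (gray points) in each of the 12 libraries, minus the gene's mean over the 4 parental libraries. Irf7, Irf9, Stat2 and the targets are highest in Tu-primed library 1 and, with 1 target excepted, lowest among Tu-primed libraries in library 4. Irf1 and Irf8 are also highest in library 1, by a small margin, but not lowest in library 4.

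Tu-primed libraries 1 and 4 marked the ends of the range for these genes. Of the 20 ISRE-type targets, 20 were highest in library 1 and 19 lowest in library 4, as were Irf7 and Irf9. Among all genes tested, 21.6% were highest in library 1, 30.6% lowest in library 4 and 9.17% both, and among the 585 genes called higher in Tu-primed than in Spl-primed cells these shares were 42.1%, 79.3% and 37.3%. Without library 4, the log2 fold change between Tu-primed and Spl-primed cells was 4.63 for Irf7 and 2.88 for Irf9, and without library 1 it was 3.97 and 2.53. Myeloid markers were also examined beside this order. Of the 4 tested, 2 were higher in Tu-primed than in Spl-primed cells, the secreted iron binder Ltf (4.16 ± 0.88 against 1.86 ± 0.26 CPM) and S100a8 (2.83 ± 0.91 against 1.49 ± 0.32 CPM, SD, n = 4). That count was 1 without Tu-primed library 1, 2 or 3 or Spl-primed library 1, 2 or 4, and 3 without Spl-primed library 3 or parental library 2 or 4. Cd14, a co-receptor for lipopolysaccharide and the most abundant of them, was at 15.3 to 17.0 CPM in Tu-primed, 12.1 to 14.5 in Spl-primed and 12.1 to 16.2 in parental libraries, and its difference between the primed groups, without overlap, missed the threshold (log2 fold change 0.31 ± 0.09; edgeR adjusted p = 0.0525). The summed level of the 20 was 22.3 to 27.3 CPM in Tu-primed, 17.8 to 21.8 in Spl-primed and 18.4 to 22.2 in parental libraries, 8 of them were at 0 in all 12 libraries, and Ptprc, Itgam, Ly6g and Csf3r had at most 10 reads as given above. The part of these markers in the IRF differences was not tested. Of 7 epithelial markers tested, 0 were called between the primed groups. Against parental cells 0 were higher and 3 lower in Tu-primed cells (all genes tested: 31.2% and 28%). In Spl-primed cells 1 was higher and 2 lower (all genes tested: 25.7% and 22.5%).

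The genes whose levels ran closest to the called members over the 12 libraries were found by the root mean square difference in log2 CPM relative to the parental mean. For Irf7 they were Oas3 (0.16), Rtp4 (0.30) and Oasl2 (0.32). For Irf9 they were the metalloreductase Steap4 (0.31), Dhx58 (0.32) and the mucin Muc1 (0.33). For Irf1 they were the inositol phosphatase Inpp5k (0.08), the collagen prolyl hydroxylase subunit P4ha2 (0.10) and Vegfa (0.10), which rose by 0.85, 0.96 and 0.91 on the log2 scale between parental and Tu-primed cells. None of the nearest genes of Irf1 was on the list of Irf1-type targets.

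Reads were also followed to the transcripts of each member, as the authors' quantification assigned them, since several members have intron-retaining forms. Irf1, Irf2 and Irf8 were nearly single-transcript genes here, with Irf1-202, Irf2-201 and Irf8-201 taking 93.2%, 94.8% and 97.8% of the reads in Tu-primed cells. Irf3 was not: transcripts not annotated as protein coding took 34.3% ± 5.33 of its reads in Tu-primed, 38.2% ± 8.09 in Spl-primed and 14.0% ± 10.4 in parental libraries (SD, n = 4). Most of them were Irf3-207, a retained-intron form, at 26.4% ± 5.04, 27.5% ± 6.66 and 13.0% ± 10.3. By library the share was 30.1, 30.5, 35.2 and 41.5% in Tu-primed, 26.3, 41.0, 44.5 and 40.9% in Spl-primed and 11.7, 26.8, 1.70 and 15.6% in parental cells. Tu-primed libraries lay above all parental libraries (exact permutation p = 0.0286) and Spl-primed libraries overlapped them (exact permutation p = 0.0571), and after adjustment over 21 tests neither passed the threshold (adjusted p = 0.24 for both). Of 8843 genes with such transcripts, 31.3% had all Tu-primed libraries above all parental ones in this share and 1.19% below, and 28.3% had all Spl-primed libraries above and 1.1% below. Between the primed groups those shares were 2.65% above and 1.15% below, and Irf3 overlapped. For the other 6 members, no difference in this share passed the threshold. The smallest p that the exact permutation allows here is 0.0286, which passes over 21 tests only where many reach it. Not passing therefore does not show that the shares were alike.

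The protein-coding transcript Irf3-202 took 64.3% ± 8.18 of the reads in parental, 45.2% ± 3.32 in Spl-primed and 45.9% ± 2.81 in Tu-primed cells. Its level was 16.0 ± 3.70, 13.8 ± 1.72 and 12.4 ± 1.03 CPM in the same order. The order of the group means was thus the reverse of that of the whole gene between parental and Spl-primed cells, with overlapping libraries, and these transcript values, chosen after they were seen, carry no test.

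Irf9 reads fell mainly on Irf9-205, whose annotated start at 55604579 on chromosome 14 is the downstream start printed above. It took 77.8, 77.2, 76.2 and 69.2% of Irf9 reads in Tu-primed libraries, 62.6, 50.3, 36.1 and 31.2% in Spl-primed libraries and 44.5, 51.7, 94.1 and 0.00% in parental libraries. Its level was 35.2 ± 12.5 CPM in Tu-primed, 3.12 ± 0.69 in Spl-primed and 2.05 ± 1.75 in parental libraries. Irf9-203, which starts upstream at 55603571, was at 3.77 ± 1.09, 2.56 ± 0.77 and 0.74 ± 0.75 CPM. The Tu-primed excess of Irf9 over Spl-primed cells was thus counted mostly on Irf9-205, where the whole gene was at 46.3 ± 14.8 and 7.11 ± 0.89 CPM. Parental libraries rested on 91 to 116 reads for the whole gene and split them unevenly, with 90.0% on Irf9-202 in library 4 and 0.00% in libraries 2 and 3, so shares there were not resolved. These transcript values were described after they were seen and carry no test.

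**Figure D5:**
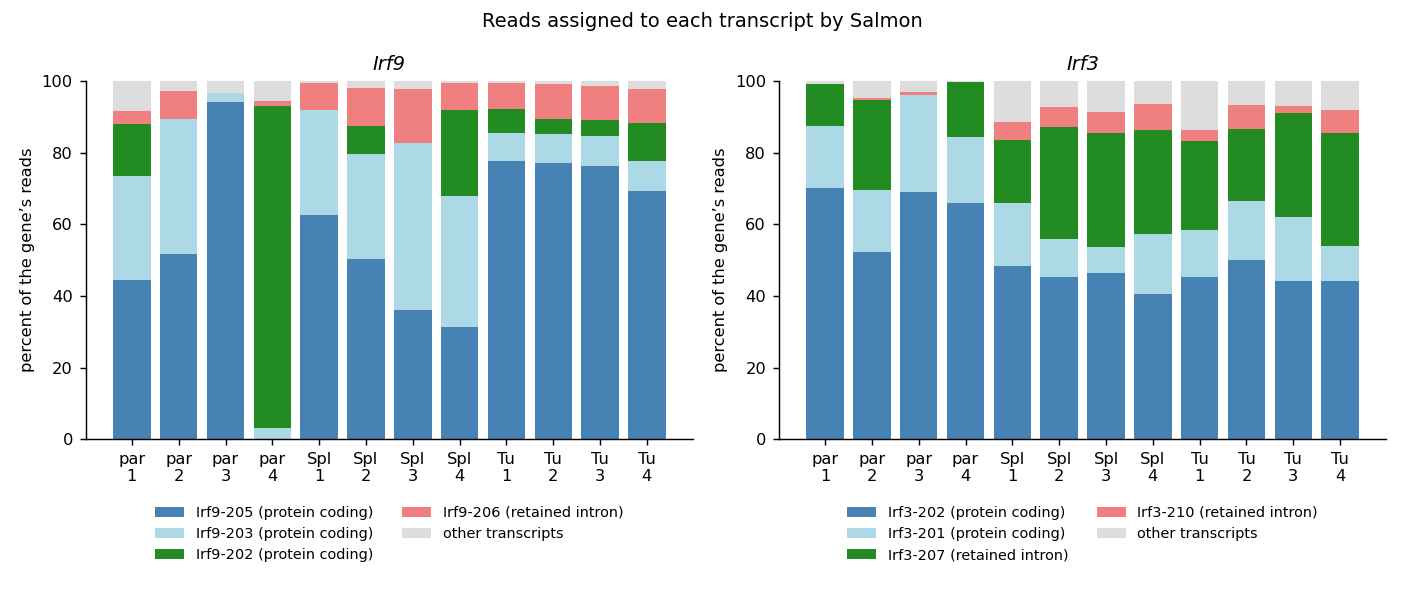
Percent of the reads of Irf9 (left) and Irf3 (right) assigned to each annotated transcript in the 12 libraries (par, parental; Spl, Spl-primed; Tu, Tu-primed; replicates 1 to 4). Irf9-205 takes 69.2% to 77.8% in the Tu-primed libraries and varies from 0.00% to 94.1% in parental ones, and the retained-intron form Irf3-207 takes more of the Irf3 reads in most primed than in parental libraries.

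Other members also share their locus with neighbors, and whether counting told apart reads of overlapping genes on opposite strands is not known. Bcl2l12 (66 to 222 reads per library) overlaps the start of Irf3 and Phrf1 (3123 to 4076 reads) the end of Irf7, both on the opposite strand. Rnf31 (245 to 574 reads) overlaps the upstream end of Irf9 on the same strand. Genes of the opposite strand also overlap Irf1 and Irf2 and were not analysed here.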

How the data were processed

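Total RNA of 12 samples (3 groups of 4) was sequenced from a TruSeq stranded kit. The submitters' processing notes name FastQC, Trimmomatic 0.39, Salmon 1.4.0 and the builds GRCm38 and mm10. The deposited tables hold, per Ensembl transcript, estimated counts from the authors' quantification, their TPM (transcript share corrected for length) and the effective transcript length. A further table deposited by the authors holds normalized counts per gene, a signal whose scaling is not given in the sources used here. It served as an alternative with limma on log2(value + 1), chosen after seeing the data.

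Estimated counts were summed per gene with GENCODE M21 (GRCm38) and rounded. Transcripts that matched no gene held 0.326% to 0.419% of reads and were left out. Genes were tested with edgeR 4.0.16 (R 4.3.3), using the quasi-likelihood test after TMM scaling and the filterByExpr filter on low counts, in 1 fit over all 12 libraries without a block. In each comparison p-values were adjusted by the Benjamini-Hochberg method and called below 0.05, and log2 fold changes carry 95% confidence intervals that are not adjusted. CPM are TMM scaled. Intervals and floors cover counting error and spread between these libraries only. Ratios and transcript shares were tested by two-sided exact permutation over libraries, and some of the genes and ratios tested are not reported here. On simulated counts with 200 of 12192 genes changed 2-fold between Tu-primed and Spl-primed cells, edgeR found 196 and made 11 false calls.

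Replicate numbers were not used to pair the libraries. Only 2 of 12 same-numbered pairs had a correlation of deviations over 0.1, which shows no pairing but cannot exclude it. Alternatives were DESeq2 1.42.0, limma-voom 3.58.1, other scalings, filters and thresholds, only the 8 libraries compared, a replicate block, protein-coding transcripts only, transcript length offsets, and each library left out. The members and gene lists were chosen with earlier results of these data known. From each list at most 4 genes were named by the smallest p between Tu-primed and Spl-primed cells, or by mean level where none was called, and for each called member the 3 genes nearest in profile. Promoter windows came from RefSeq (GRCm38.p6). Figures were drawn with matplotlib 3.10.9.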

Additional observations from a re-analysis of the deposited data

Results flagged for a closer look

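Of 51 sets of 4 libraries examined for a library far from the other 3, 5 held one by Dixon's criterion, and chance alone flags about 1 in 20. For Irf3, Tu-primed library 4 stood at 31.2 CPM while the others lay between 25.1 and 26.1. The log2 TPM ratio of Irf9 to Stat2 was -0.57 in parental library 2 and -0.11 to -0.04 in the other parental libraries. For Irf2, the share of reads on transcripts not annotated as protein coding was 7.05% in parental library 3 against 0.256% to 1.30% in the others. For Irf5, which had few reads, that share was 3.33% in Tu-primed library 2 and 11.1% in Spl-primed library 1, with 0% in the other libraries of each group.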

How the results depend on the processing

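Between Tu-primed and Spl-primed cells, 3 members were called higher with every library left out in turn, and 2 with transcript length offsets, in the deposited normalized table and with an absolute log2 fold change over 1, where Irf1 was not called. Irf7 and Irf9 kept their direction and call against both other groups in all 25 alternatives run. The count of members higher than in parental cells fell from 4 to 2 in Tu-primed cells with an absolute log2 fold change over 1, and in Spl-primed cells from 4 to 2 with transcript length offsets, the deposited normalized table or an adjusted p under 0.01, and to 0 with an absolute log2 fold change over 1. With a replicate block the members called higher were 3, 4 and 4, as without it, and over all genes the calls between the primed groups were 488 higher and 256 lower (585 and 373 without it). Only 3 of 12 libraries correlated best with one of their own number.

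The log2 fold change of Irf2 turned to 0.15 (Tu-primed against Spl-primed) with length offsets and in the deposited table, and to -0.026 and -0.045 (Spl-primed against parental). With protein-coding transcripts only, Irf3 turned to -0.23 in Tu-primed and -0.14 in Spl-primed against parental cells, and with length offsets it was called higher in Tu-primed against parental cells (0.34, edgeR adjusted p = 0.0402). Irf5 in Tu-primed against parental cells turned to -0.44 with length offsets and -0.54 in the deposited table, and ranged from -0.082 to 0.30 with libraries left out. Irf8 between the primed groups ranged from -0.053 to 0.0087. The call of Irf2 in Tu-primed against parental cells was lost without Tu-primed library 3 or 4 or parental library 1 or 3. The causes were not tested.

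On CPM, the ratio of Irf1 to Irf2 differed between the primed groups by 0.37. The ratio of Irf9 to Stat2 differed between Tu-primed and parental cells by 0.92 with protein-coding transcripts only and by 0.92 on CPM, and between Spl-primed and parental cells by -0.024 and 0.12. With libraries left out (3 against 4, where the adjusted p often missed the threshold), Irf1 to Irf2 ranged from 0.63 to 0.90 in Tu-primed and 0.46 to 0.73 in Spl-primed against parental cells. Irf9 to Stat2 ranged from 0.68 to 0.89 between the primed groups, 0.17 to 0.39 and -0.62 to -0.45 against parental cells.

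Some differences in the share of reads on transcripts not annotated as protein coding, none of them called, changed sign as shares of TPM. Those that did were then 0.53 percentage points for Irf1, -2.19 for Irf7 and -5.10 for Irf9 in Spl-primed against parental cells. In Tu-primed against parental cells they were -0.73 for Irf2 and -6.88 for Irf9. With libraries left out, the differences between the primed groups ranged from -0.65 to 3.09 for Irf1, -2.87 to 0.83 for Irf5 and -2.27 to 0.76 for Irf9. Against parental cells they ranged from -0.82 to 3.23 for Irf1, -0.47 to 1.80 for Irf2 and -0.94 to 1.38 for Irf8 in Tu-primed cells, and from -1.45 to 1.65 for Irf1 and -0.43 to 1.89 for Irf8 in Spl-primed cells.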
